A study of Mus musculus with 60 samples.

Results

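The Hoxa cluster genes Hoxa2, Hoxa3, Hoxa4, Hoxa5, Hoxa6, Hoxa7, Hoxa9, Hoxa10, Hoxa11 and Hoxa13 lie at chr6:52162417-52260880 in the mouse genome (mm10). They are 10 of the 21829 protein-coding genes measured. The genes were selected on the H3K27me3 peaks in these same lists, so the values of that mark over them are a description and carry no test. In all 9 independent H3K27me3 lists the mark lay at the Hoxa10 to Hoxa13 end of the cluster. No list had a peak over any part of the principal transcript of Hoxa2, Hoxa3, Hoxa4, Hoxa5, Hoxa6, Hoxa7 or Hoxa9. H3R2C had the least of Hoxa13 under peaks, at 33.2% ± 5.23 of its principal transcript (SD, n = 2 libraries). In H3R2C and in the 1 H3R17C list 0% of Hoxa11 was under peaks. H3WT cells had 99.3% ± 1.05 of Hoxa13 and 77.1% ± 11.4 of Hoxa11 under peaks (SD, n = 2).

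Hox genes encode homeodomain transcription factors that give cells a position along the body axis and the limb. They sit in clusters whose gene order follows the order in which they are used, from anterior genes such as Hoxa2 to posterior genes such as Hoxa13. Outside their domain of use they are classic targets of Polycomb repressive complex 2, which trimethylates lysine 27 of histone H3 (H3K27me3), a mark that spreads over silent stretches of a Hox cluster while active stretches lack it.

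H3K27me3 and HA were profiled by CUT&RUN, in which an antibody tethers a nuclease that releases the bound DNA for sequencing. The cells were C3H 10T1/2, a mouse mesenchymal progenitor line. All of them carried a lentiviral histone H3.1 transgene with HA and FLAG tags under the EF1 promoter and were selected with puromycin, beside their own unmodified H3 genes. The 5 genotypes were H3WT, the unmutated transgene and control, and H3R2C, H3R8C, H3R17C and H3R26C, in which the arginine of that number is a cysteine. Labels gave 3 replicates per genotype and antibody, which the study describes as independent biological replicates. In each of the 10 groups a pair of labelled replicates held identical lists and was counted as 1 library, which left 2 libraries per group.

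The H3R17C H3K27me3 replicate 1 list stood apart and was left out. It had 37092 peaks against 20077 to 24598 in the other 9 H3K27me3 lists, and its name carries another histone mark than its label. H3R17C therefore has 1 H3K27me3 list and no replicate check. The lists hold peaks only, without read counts per gene, so no counting interval could be given, and the read totals stated by the study were not used here. The lowest total signal of a peak, which is coverage summed over its bases, ranged from 3400 to 8050 between the 9 lists. It was lowest in H3R26C replicate 3 and highest in H3R2C replicates 1 and 2. A gene without a peak may therefore hold a weaker mark. For the cell type, 10 mesenchymal genes were looked at, Col1a1, Pdgfra, Prrx1 and Twist1 among them. In every genotype 0 of these 10 had an H3K27me3 peak over the start site in all its lists. The share of all protein-coding genes was 6.89% to 9.63%, so 0 of 10 does not by itself check the cell type. Of 8 genes of other lineages 5 did in H3WT, for example the muscle regulator Myod1 and the neuronal factor Neurod1. The counts of these 8 were 2 in H3R2C, 6 in H3R8C, 5 in H3R17C and 6 in H3R26C. Absence of this mark does not show that a gene was expressed.

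Sequences of 250 bases before 4 start sites are shown, because the edge of the mark lay between them. The principal transcript of Hoxa9 stayed outside it in every list, and Hoxa10 and Hoxa11 were marked in some lists and not in others. Hoxa13 had a peak over its body in every list, though the sequence before its start site was under a peak in some lists only. The sequences are from RefSeq (GRCm38.p6, the assembly of mm10), minus strand, 5′ to 3′, with every CG dinucleotide in capitals. CG is the same on both strands.
Hoxa9, chr6:52227371-52227620: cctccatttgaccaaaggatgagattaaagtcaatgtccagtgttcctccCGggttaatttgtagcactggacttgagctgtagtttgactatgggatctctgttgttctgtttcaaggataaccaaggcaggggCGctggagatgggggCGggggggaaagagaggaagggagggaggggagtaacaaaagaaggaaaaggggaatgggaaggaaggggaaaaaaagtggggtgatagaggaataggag
Hoxa10, chr6:52234940-52235189: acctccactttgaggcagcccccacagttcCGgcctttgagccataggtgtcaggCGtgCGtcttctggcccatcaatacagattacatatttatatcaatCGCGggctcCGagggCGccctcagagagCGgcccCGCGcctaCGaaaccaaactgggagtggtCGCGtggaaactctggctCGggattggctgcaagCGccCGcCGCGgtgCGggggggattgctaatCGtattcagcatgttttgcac
Hoxa11, chr6:52245811-52246060: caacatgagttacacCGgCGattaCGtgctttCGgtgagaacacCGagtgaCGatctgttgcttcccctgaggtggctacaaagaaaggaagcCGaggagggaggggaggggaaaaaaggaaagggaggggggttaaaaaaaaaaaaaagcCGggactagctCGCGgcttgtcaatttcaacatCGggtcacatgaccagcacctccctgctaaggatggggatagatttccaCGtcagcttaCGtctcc
Hoxa13, chr6:52260881-52261130: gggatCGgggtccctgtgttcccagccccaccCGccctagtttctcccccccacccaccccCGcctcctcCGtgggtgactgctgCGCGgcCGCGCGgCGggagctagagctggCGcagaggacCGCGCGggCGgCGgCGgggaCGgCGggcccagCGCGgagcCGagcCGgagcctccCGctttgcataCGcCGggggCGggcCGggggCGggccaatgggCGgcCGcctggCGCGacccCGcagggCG

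The Hoxa13 sequence held 35 CG dinucleotides, and 2.97% of 32851 promoter windows of this length held as many or more. Hoxa10 held 20, reached by 17.9% of promoters, and Hoxa11 held 13, reached by 31.5%. A second Hoxa10 window, before the start of a longer transcript (chr6:52240855-52241104, not printed), held 7, reached by 46.3%. That second window was wholly under a peak in 4 of 9 lists. Hoxa9, the nearest neighbour without a peak over its principal transcript, held 3, and 71.0% of promoters held as many or more. Among the unmarked genes Hoxa5 held 28 and Hoxa6 held 24, so CG number did not order the members by their mark. The Hoxa9 sequence was under no peak in any list. The Hoxa10 sequence was wholly under a peak in 4 of 9 lists, that of Hoxa11 in 6 of 9 and that of Hoxa13 in 3 of 9, and each lay outside peaks in the remaining lists. RefSeq sequences were matched for 9 of the 10 genes, all but Hoxa4.

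**Figure D1:**
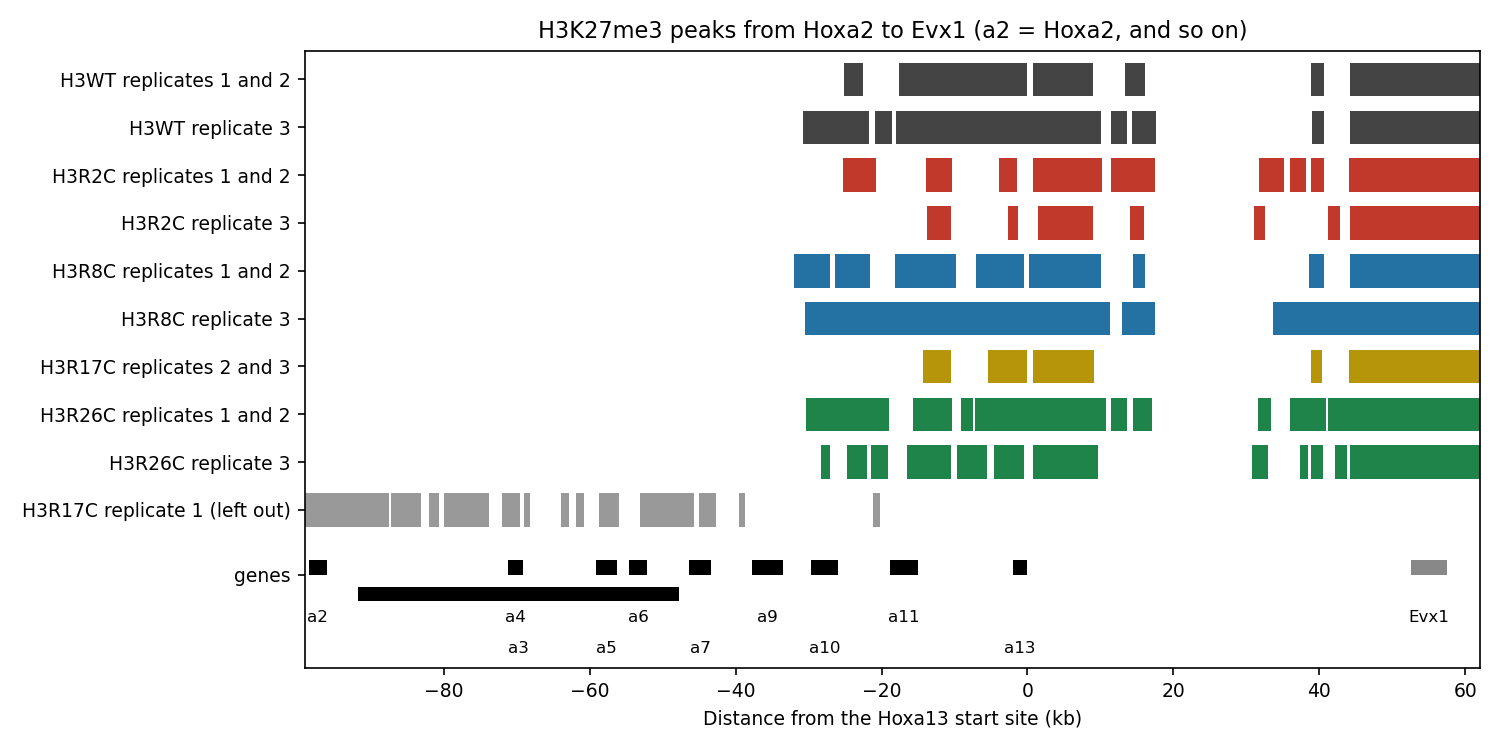
H3K27me3 peaks in each list from Hoxa2 to Evx1, drawn as bars against distance from the Hoxa13 start site in kb, with negative values towards Hoxa2; black boxes are the 10 members and the grey box is Evx1. In the 9 lists used, colored by genotype, no peak lies further than 32.0 kb from the Hoxa13 start site on the Hoxa2 side, whereas the left-out H3R17C list (grey bars) has nearly all its peaks over Hoxa2 to Hoxa7.

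The anterior and middle genes were free of called H3K27me3 in every genotype. Hoxa2 patterns the hindbrain and the second pharyngeal arch, Hoxa3 the third arch with the thymus, and Hoxa4, Hoxa5, Hoxa6 and Hoxa7 the neck and thorax, with Hoxa5 also needed in the lung. The stretch from Hoxa2 to the Hoxa9 start site is 65.0 kb long, and 0 kb of it lay under a peak in each of the 9 lists. Skap2, a gene outside the cluster on that side, also had 0% of its length covered. At the other end Evx1, a homeobox gene beside Hoxa13, was 100% covered in all 9 lists. The mark therefore ended inside the cluster, between the Hoxa9 start site and Hoxa13, in all 5 genotypes.

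Where the mark ended differed between lists. In H3WT its first peak began 25.1 kb from the Hoxa13 start site in replicates 1 and 2 and 30.8 kb in replicate 3. These positions are beside or across the principal Hoxa10 transcript. In H3R8C the distances were 32.0 and 30.4 kb, and in H3R26C 30.4 and 28.2 kb. H3R2C replicates 1 and 2 began at 25.3 kb, but H3R2C replicate 3 at 13.8 kb. The only H3R17C list began at 14.3 kb. The short domains of H3R2C replicate 3 and H3R17C began 1.24 and 0.741 kb upstream of the Hoxa11 start site. No peak was thus called over the body of Hoxa11 there. Across the lists, 32.0 kb of the 98.5 kb range was under a peak in at least 1 of the 9 lists and 4.65 kb in all 9. The shared bases were a block of 3.35 kb between Hoxa11 and Hoxa13 (chr6:52247051-52250400) and one of 1.3 kb (chr6:52258151-52259450) that reaches into Hoxa13 from its distal end.

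A start site was called when a peak overlapped the base and 1 kb on each side by at least 1 bp in every library of the genotype. In H3WT 3 of the 10 genes were called, Hoxa10, Hoxa11 and Hoxa13, against 8.83% of all protein-coding genes. The same 3 were called in H3R8C, where the share of all genes was 9.63%. In H3R26C Hoxa11 and Hoxa13 were called, with 8.28% of all genes. In the H3R17C list Hoxa11 and Hoxa13 were called, with 8.74% of all genes. In H3R2C 0 of 10 genes were called in both libraries, with 6.89% of all genes. Its replicates 1 and 2 had a peak in the windows of Hoxa10 and Hoxa13, and its replicate 3 had none over any member. Because the members were chosen on these peaks, nothing is read from their counts against the shares of all genes.

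Several of these calls rested on the edge of a window. The Hoxa10 window of 2001 bp was overlapped by 139 bp in H3WT replicates 1 and 2 and by 339 bp in H3R2C replicates 1 and 2, whereas in H3R26C replicate 3 the nearest peak lay 88 bp outside it. The Hoxa11 window was overlapped by 260 bp in H3R17C. In H3R2C the nearest peak to that window lay 140 bp outside it in replicates 1 and 2 and 240 bp outside it in replicate 3. The Hoxa13 window was overlapped by 230 bp in H3R2C replicates 1 and 2 and missed by 279 bp in replicate 3. With a window of 3 kb on each side H3R2C had 2 called genes, and with the start base alone H3WT had 1 and H3R17C had 0.

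Start sites with a peak in both H3WT libraries and in no H3R2C library were 25.9% of the 1927 start sites called in H3WT, and Hoxa11 was the 1 member among them. For H3R17C the share was 16.5% and the member was Hoxa10. For H3R8C the share was 4.62% and for H3R26C 9.29%, with 0 of the 3 members in either.

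**Figure D2:**
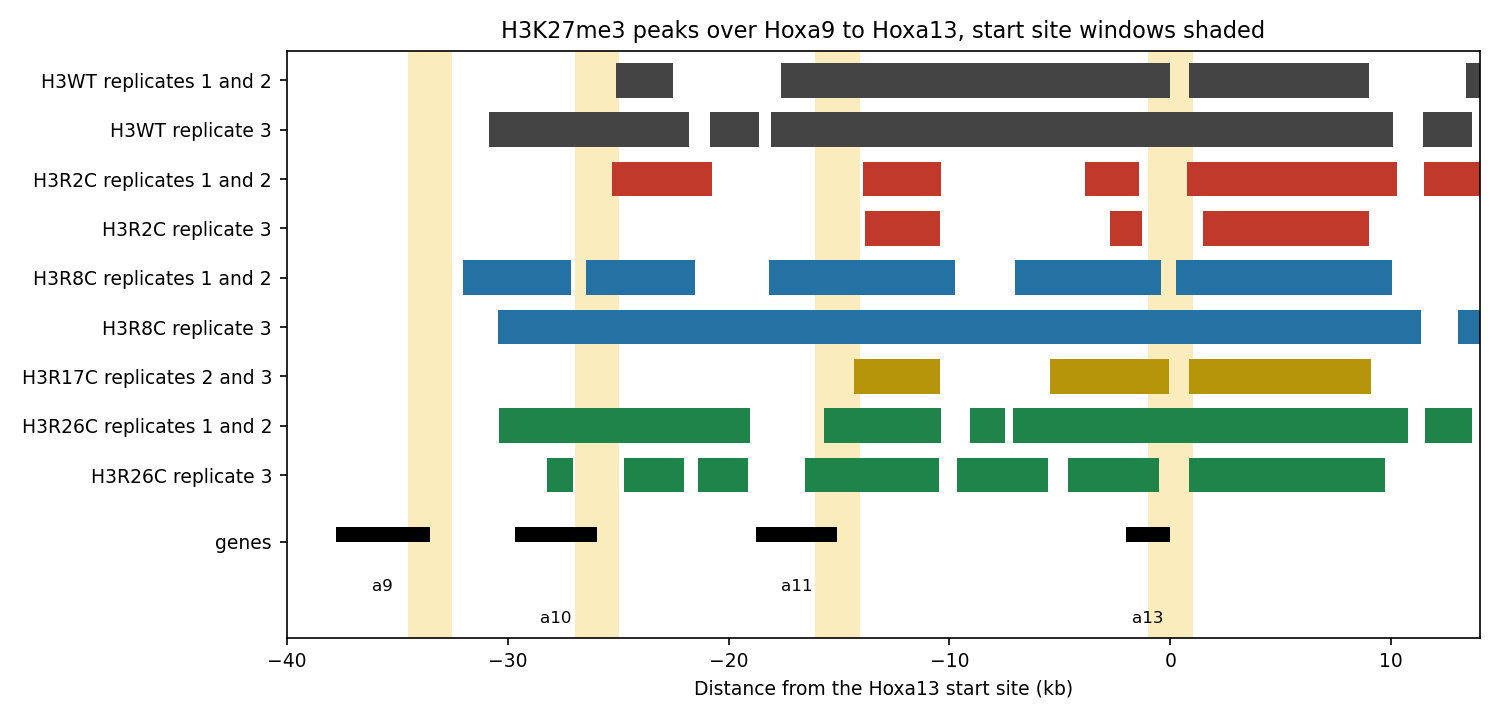
H3K27me3 peaks over Hoxa9 to Hoxa13 in the 9 lists, as bars against distance from the Hoxa13 start site in kb, with each start site and 1 kb on each side shaded. The window of Hoxa9 is empty in all 9 lists, and the window of Hoxa11 is empty in both H3R2C lists.

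Hoxa13 acts at the far end of the limb, in the digits, and in the hindgut and genital tract. It was the one member with a peak over its body in all 9 lists. Peaks covered 98.5% of it in H3WT replicates 1 and 2 and 100% in H3WT replicate 3. They covered 78.8% and 100% in H3R8C, 96.1% in H3R17C, and 100% and 73.9% in H3R26C. In H3R2C they covered 29.5% in replicates 1 and 2 and 36.9% in replicate 3. Both H3R2C libraries thus lay below the other 7 lists. These percentages are of the principal transcript, and the full gene record starts at 52257694. The H3R2C peaks lay at 52257001-52259450 (replicates 1 and 2) and 52258151-52259600 (replicate 3). They were near the weakest of their lists, with totals of 9400 and 5400 against lowest totals of 8050 and 4250. The H3WT lists had lowest totals of 5800 and 6000. The part of these levels in the coverage was not tested.

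Signal over a gene was taken as the total signal of its peaks inside the gene per base, divided by the median over the 1720 genes with signal in every list, so that a typical marked gene is at 1. The lists give 1 total per peak, so a peak counts as even along its length, and in both H3WT lists 1 peak spanned Hoxa11 and Hoxa13. On this scale Hoxa13 stood at 3.36 and 4.01 in H3WT. It stood at 0.364 and 0.974 in H3R2C, a mean of 18.2% of the H3WT mean. In H3R8C it stood at 3.90 and 3.84, in H3R17C at 3.83, and in H3R26C at 5.77 and 5.71. The H3R2C libraries did not overlap those of H3WT and were lower, and the H3R26C libraries did not overlap them and were higher. The higher position of H3R26C depended on the scale: with the signal as deposited its libraries were 14.4 and 5.34 against 7.29 and 9.32 in H3WT, which overlap. The lower position of H3R2C held there too, at 1.13 and 1.37.

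The highest coverage anywhere in a peak that touched Hoxa13, which may lie outside the gene and is not scaled between lists, was 27 and 29 in H3WT. It was 10 in both H3R2C libraries, 32 and 40 in H3R8C, 18 in H3R17C, and 50 and 24 in H3R26C. Immediately upstream of the Hoxa13 start site a broad peak remained in every list, and it spanned the start site in 3 of the 9. In H3R2C it began 771 bp before the start site in replicates 1 and 2 and 1471 bp before it in replicate 3, and was 9.50 and 7.50 kb wide. In the other 6 lists the start base lay in a gap between peaks. This gap was 2200 and 2750 bp wide in H3R2C, 850 bp in H3WT replicates 1 and 2, 700 bp in H3R8C replicates 1 and 2, 900 bp in H3R17C and 1350 bp in H3R26C replicate 3. The H3R2C lists thus kept H3K27me3 on both sides of the Hoxa13 start site and had the widest gaps over it.

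Hoxa11 patterns the forearm and lower leg and acts in the kidney and uterus. Peaks covered 69.1% and 85.2% of it in H3WT, and 83.9% and 100% in H3R8C. They covered 0% in both H3R2C libraries and 0% in the H3R17C list. H3R26C was between, at 16.5% and 39.4%. The H3R26C libraries lay below both H3WT libraries and above those of H3R2C and H3R17C. The scaled signal gave the same order, with 2.36 and 3.30 in H3WT, 3.39 and 3.84 in H3R8C, and 0.639 and 1.94 in H3R26C, a mean of 45.6% of H3WT. In H3R26C the peak upstream of Hoxa11 still reached 1610 and 2001 bp of the start site window. What had no called peak there was the rest of the body, towards the distal end of the gene.

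Hoxa10 acts in the lumbar axis, the thigh and the uterus. It varied most between libraries of a genotype. Peaks covered 0% of it in H3WT replicates 1 and 2 and 100% in H3WT replicate 3. They covered 81.3% and 100% in H3R8C, 100% and 32.1% in H3R26C, and 0% in both H3R2C libraries and in H3R17C. Because the H3WT libraries spanned the whole range from 0% to 100% of the principal transcript, no genotype lay outside H3WT on it. A longer Hoxa10 transcript starts at position 52240854 of chromosome 6. Between the start sites of the principal and the longer transcript, H3WT replicates 1 and 2 had a peak at 52235801-52238350. H3R2C replicates 1 and 2 had one there too, at 52235601-52240150. The first peaks of H3R2C replicate 3 and H3R17C began at 52247051 and 52246551, outside both transcripts. A peak overlapped the window at the longer transcript's start in H3WT replicate 3, H3R2C replicates 1 and 2, H3R8C replicate 3 and both H3R26C libraries. No other list had one.

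Hoxa9 acts in the limb and in blood cell precursors. Its principal transcript was at 0% and at a scaled signal of 0 in all 9 lists. In H3R8C replicates 1 and 2 the first peak began 1.48 kb upstream of that transcript's start site, the nearest approach of any list. The full gene record of Hoxa9 reaches further, to 52231089. H3R8C had first peaks inside it, from 52228851 (replicates 1 and 2) and 52230451 (replicate 3). So did H3WT replicate 3, from 52230051, and H3R26C replicates 1 and 2, from 52230501. The first peaks of the other lists began outside it.

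**Figure D3:**
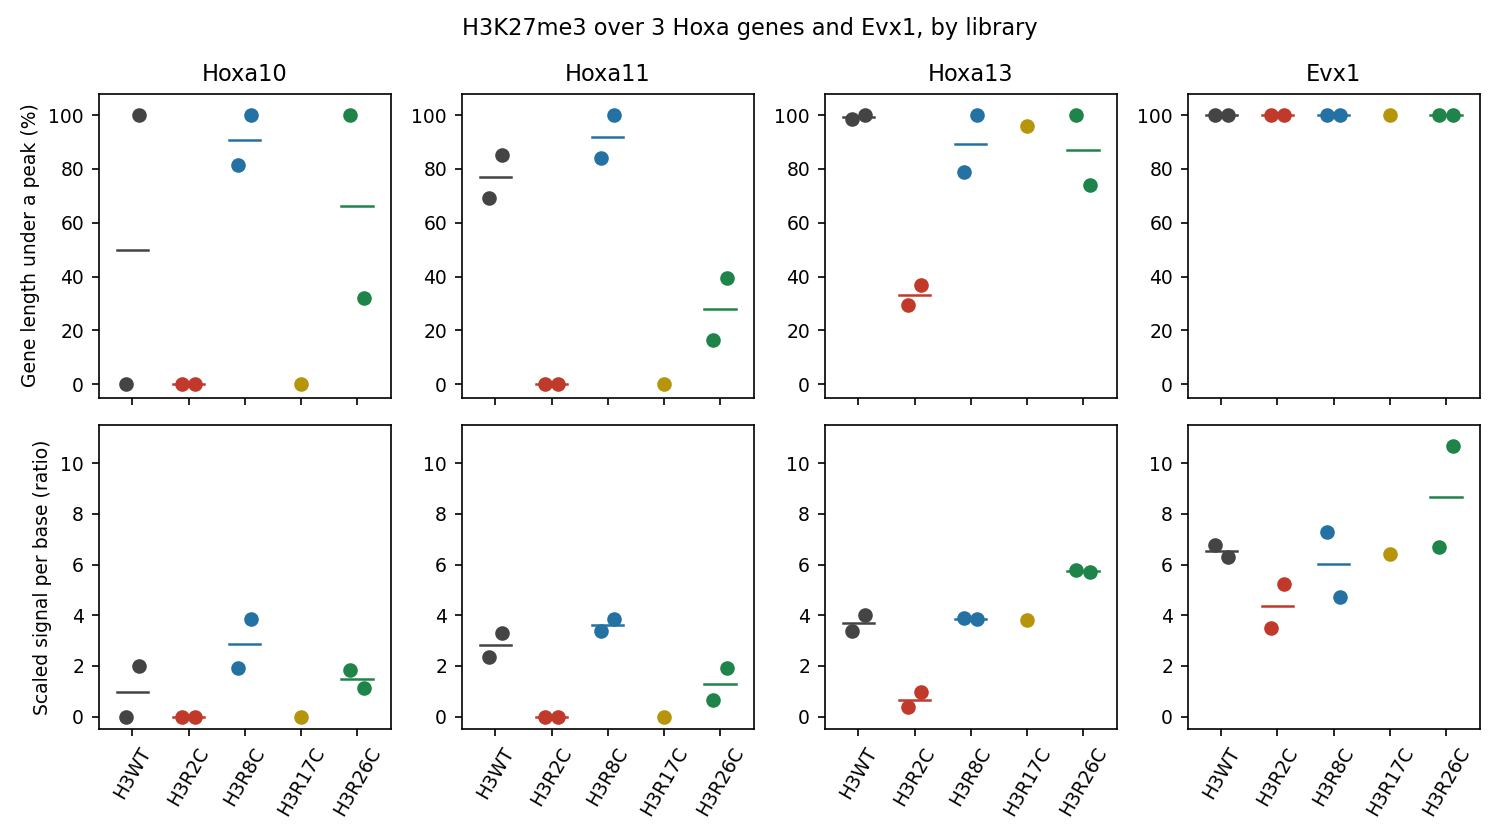
H3K27me3 over Hoxa10, Hoxa11, Hoxa13 and the neighbour Evx1 in each library. The upper row gives the percent of the gene under peaks, the lower row the signal per base as a ratio to the median marked gene; points are libraries and bars their mean where there are 2. At Hoxa13 both H3R2C points lie below all others, while Evx1 is at 100% in every library.

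Evx1 offered a fully marked gene in the same region. Its scaled signal was 6.76 and 6.32 in H3WT, 3.51 and 5.22 in H3R2C, 7.29 and 4.73 in H3R8C, 6.43 in H3R17C, and 6.70 and 10.7 in H3R26C. Evx1 was thus also lower in H3R2C, at 66.8% of the H3WT mean. Divided by Evx1 of the same list, Hoxa13 came to 0.497 and 0.635 in H3WT and to 0.104 and 0.186 in H3R2C. On that ratio the H3R26C libraries, at 0.861 and 0.535, overlapped H3WT. Hoxa11 over Evx1 was 0.349 and 0.523 in H3WT and 0.0955 and 0.182 in H3R26C, which did not overlap. In H3R8C replicate 3 a single peak of 41.8 kb held Hoxa10, Hoxa11 and Hoxa13, and its signal was shared out evenly by length, so the 3 genes have the same value in that library.

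Across all genes with signal in the libraries compared, positions without overlap were common. The scaled signal was below both H3WT libraries without overlap at 29.1% of genes for H3R2C, 19.2% for H3R8C, 29.1% for H3R17C with its 1 list, and 22.4% for H3R26C. It was above them at 28.4%, 24.0%, 35.6% and 27.8%, respectively. Of the 3 members with signal, Hoxa11 and Hoxa13 were below H3WT in H3R2C, Hoxa11 was below it in H3R17C and in H3R26C, Hoxa13 was above it in H3R26C, and Hoxa11 was above it in H3R8C. The position of Hoxa11 in H3R8C was lost on other scales: with the signal as deposited its libraries were 6.88 and 10.2 against 5.12 and 7.68 in H3WT, and they also overlapped when divided by Evx1 and by maximum signal. With 2 libraries against 2, an exact permutation test cannot give a two-sided p under 0.333.

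The stretch between Hoxa11 and Hoxa13 was also least covered in H3R2C. The 13.04 kb between Hoxa11 and Hoxa13 was 100% covered in both H3WT libraries. It was 79.3% and 100% covered in H3R8C, 87.3% and 87.0% in H3R26C, 56.0% in H3R17C, and 41.4% and 31.4% in H3R2C. The 14.7 kb from the Hoxa9 start site to the end of Hoxa11 was covered by 17.3% and 75.4% in H3WT, and by 0% in H3R2C replicate 3 and H3R17C. H3R2C replicates 1 and 2 had 30.9% there, from a single peak of 4.55 kb between the start sites of the principal and the longer Hoxa10 transcript. From the Hoxa13 start site to that of Evx1, H3R2C had 59.8% and 40.2% covered against 39.9% and 48.8% in H3WT, and H3R17C had 34.8%. In these 52.6 kb beyond Hoxa13 the H3R2C and H3WT libraries overlapped.

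The difference between the posterior and the other members summarised this end of the cluster. The mean percent covered of the 4 genes Hoxa9 to Hoxa13 minus that of the 6 genes Hoxa2 to Hoxa7 was 56.6 ± 20.8 percentage points in H3WT, 68.0 ± 9.89 in H3R8C and 45.2 ± 12.6 in H3R26C (SD, n = 2 each). It was 8.30 ± 1.31 in H3R2C (SD, n = 2) and 24.0 in the 1 H3R17C list. The libraries of H3R2C, at 7.37 and 9.22 points, lay below all others, and H3R17C lay below those of H3WT, which were 41.9 and 71.3. The median member was 0% covered in all 9 lists, as was the median protein-coding gene.

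**Figure D4:**
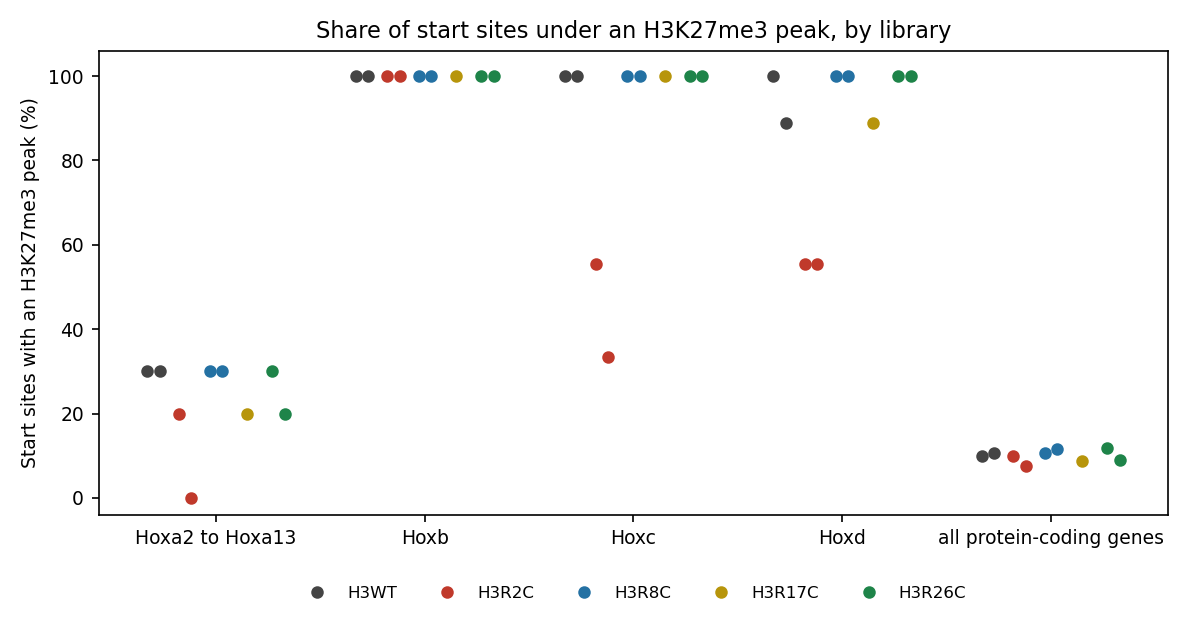
Percent of start sites with an H3K27me3 peak within 1 kb in the Hoxa members, the Hoxb, Hoxc and Hoxd genes and all protein-coding genes; each point is 1 list and colors are genotypes. The Hoxa points lie between 0% and 30%, whereas all Hoxb points are at 100% and the H3R2C points of Hoxc and Hoxd lie below the other genotypes.

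The other Hox clusters differed from Hoxa in how far the mark reached. All 10 Hoxb start sites were called in all 5 genotypes, H3R2C included. All 9 Hoxc start sites were called in H3WT, H3R8C, H3R17C and H3R26C, and 3 of them, Hoxc4, Hoxc5 and Hoxc6, in H3R2C. Of 9 Hoxd start sites 8 were called in H3WT, 9 in H3R8C and H3R26C, 8 in H3R17C and 5 in H3R2C. The Hoxd start sites called in H3R2C were Hoxd3, Hoxd4, Hoxd9, Hoxd10 and Hoxd12, so both anterior and posterior Hoxd genes were among those called and those not called.

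Start sites of genes that work with Hoxa proteins or place the mark were counted in the same way. The share of all protein-coding genes called was 6.89% in H3R2C to 9.63% in H3R8C. Of 9 genes for TALE cofactors, which bind DNA together with Hox proteins (the Pbx, Meis and Pknox families), 0 were called in H3WT and H3R17C, and Pknox2 was the 1 called in H3R2C, H3R8C and H3R26C. Of 19 Polycomb genes, among them Ezh2, Eed and Suz12 of the complex that writes the mark, 0 were called in H3WT, H3R2C, H3R8C and H3R26C. The H3R17C list had a peak at 1 of them, Phf19. Both lists were chosen by function, and nothing is read from such small counts against the shares of all genes.

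The search for genes most like the median member did not single any out, because the median member was at 0% throughout and 14490 of 19077 genes of at least 2 kb outside the range were also at 0% in all 9 lists. A search for genes like Hoxa13 alone was added after these values had been seen. By the mean absolute difference in percent covered over the 9 lists, the 5 nearest were Vsx1 (6.62 percentage points), Irx6 (7.50), Hoxd3 (7.90), Tpbgl (8.53) and Skor1 (8.56). In H3R2C, Vsx1 was 33.0% covered in both libraries and Hoxd3 46.9% and 37.8%. For Hoxa11 the nearest was the Wnt ligand gene Wnt1 (11.6 points), with 40.2% and 81.3% in H3WT and 0% in H3R2C, H3R17C and H3R26C.

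HA lists show where the tagged histone itself was enriched. The range held 0 HA peaks in both H3WT lists and at most 1 in any mutant list. The HA lists differed widely among themselves, with 15344 to 52083 peaks and a lowest total signal of 43200 and 6300 in the H3WT lists against 1350 to 3250 in the mutant lists. An enrichment that passes in a mutant list could therefore fall below the level of an H3WT list, and the part of this in the result was not tested. Over Hoxa13 an 850 bp peak was called in H3R2C replicates 1 and 2 and a 1400 bp peak in H3R26C replicates 1 and 2, covering 41.9% and 31.9% of the gene. Neither was seen in replicate 3 of its genotype. Their totals were 1650 and 2750, at 1.22 and 1.41 times the weakest peak of the same list.

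An 800 bp HA peak lay over the start site window of Hoxa3 in H3R17C replicates 1 and 2. It covered 1.82% of that long gene, and its total of 1450 was that of the weakest peak in the list. The last HA peak in the range, 750 bp wide, lay in H3R8C replicate 3 between Hoxa11 and Hoxa13. The other 8 members had no HA signal in any of the 10 lists. Across all protein-coding genes, 7.89% to 21.3% of start sites had an HA peak in a list, against 1 start site window of a member in 1 list here.

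Hoxa13 was the only member with HA signal in at least 2 of the 10 libraries, the level required for the test, and it reached that level only through the 2 mutant libraries where it had a peak. Its scaled HA signal was 5.10 in H3R2C replicates 1 and 2, 1.43 in H3R26C replicates 1 and 2 and 0 in the other 8 libraries. On the log2(signal + 0.25) scale the difference from H3WT was 2.21 in H3R2C (SE 1.38, limma adjusted p = 0.461) and 1.37 in H3R26C (SE 1.38, limma adjusted p = 0.910). Each rested on 1 library of 2, the groups overlapped, and these values are a description of a gene that entered the test by its own signal. For H3R8C and H3R17C the comparison set 0 against 0 and says nothing of a difference. Over the 11286 genes tested the calls were 4.13% in H3R2C, 0.399% in H3R8C, 0.762% in H3R17C and 0.540% in H3R26C, and Hoxa13 was not among those of H3R2C and H3R26C, also at an unadjusted p under 0.05.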

How the data were processed

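The members and gene lists were chosen with earlier results of these data known. Peak lists of 30 anti-HA and anti-H3K27me3 samples were used. Libraries made with IgG or anti-H3K4me3 were not analysed here. Per the study's methods, the authors aligned single-end reads to mm10 with Rsubread and called peaks per sample with SEACR (version 1.3 in the submitters' processing notes; stringent, normalised mode, threshold 0.01). The deposited lists give total and maximum signal as coverage that the authors did not scale to a common depth, and peak edges lie on a 50 bp grid. Groups came from the sample titles, and identical lists of a group were counted once.

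Gene models were the principal protein-coding transcripts of GENCODE M21 on the same build. Peak totals were shared out by length inside each gene. HA signal per base was divided by the median over the 2207 genes with signal in every library and tested with limma 3.58.1 (lmFit and eBayes with trend, all 10 libraries, Benjamini-Hochberg adjustment, threshold 0.05), which was first tested on simulated data. H3K27me3 values of the members were not tested. Genes named were the members, Evx1, Skap2 and the lists; Wnt1, Vsx1 and the others like a member were added after their values were seen. The alternatives tried were other windows, peak sets, gene models, scalings, pseudocounts, filters, a replicate block and leaving out each library.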

Additional observations from a re-analysis of the deposited data

Results flagged for a closer look

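The H3R17C replicate 1 list, left out of every comparison, had peaks over the start sites of 6 of the 10 members, Hoxa2 to Hoxa7, where the 9 lists used had 0. It covered 100% of Hoxa2, 67.0% of Hoxa3, 78.2% of Hoxa4, 84.2% of Hoxa5, 37.9% of Hoxa6 and 78.4% of Hoxa7, and 0% of Hoxa9, Hoxa10, Hoxa11, Hoxa13 and Evx1. Of its 42.3 kb of peaks in the range, 0.950 kb (2.24%) lay under a peak of any of the 9 lists, which is 2.97% of the bases those lists covered. Over all protein-coding genes it had a peak at 39.1% of start sites.

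Hoxa13 was flagged because both H3R2C libraries moved below H3WT, at 0.182 of its mean scaled H3K27me3 signal, and both H3R26C libraries above it, at 1.56. Hoxa11 was flagged because both H3R8C libraries lay above H3WT, at 1.28, while those of H3R2C (0), H3R17C (0, 1 list) and H3R26C (0.456) lay below. With the signal as deposited, divided by Evx1 or by maximum signal, Hoxa11 in H3R8C overlapped H3WT. So did Hoxa13 in H3R26C on each of these scales. These differences between genotypes were not tested, since the members were selected on this mark.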

How the results depend on the processing

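The posterior minus anterior difference kept its sign or went to 0 under every alternative. In H3R2C it was 0 points with the upper 50% of peaks and 18.5 with the gene record, against 8.30. Leaving out 1 library gave 41.9 to 71.3 points in H3WT, 7.37 to 9.22 in H3R2C, 61.0 to 75 in H3R8C and 36.3 to 54.1 in H3R26C. Called start sites numbered 1 in H3WT, 0 in H3R17C and 1 in H3R26C with the start base alone, and 1 in H3R17C and H3R26C when 50% of the window had to be covered. In H3R2C they numbered 2 with 3 kb on each side or with all labelled replicates, and 0 to 2 when either library was left out. The median member stayed at 0%.

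The ratios of signal to H3WT were recomputed on scales chosen after seeing the data. Hoxa13 in H3R17C went from 1.04 to 0.704 with the signal as deposited, to 0.804 with maximum signal, and to 0.955 without H3WT replicates 1 and 2 or 1.14 without H3WT replicate 3. Hoxa13 in H3R8C went from 1.05 to 0.964 without H3WT replicates 1 and 2 and to at most 1.15 without another library. Hoxa13 in H3R2C stayed between 0.0989, without H3R2C replicate 3, and 0.434, with maximum signal. With the full gene record it was 0.253 against 0.182 with the principal transcript. Hoxa11 in H3R26C stayed between 0.226, without H3R26C replicate 3, and 0.703, with maximum signal. No other ratio changed direction.

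In the HA fit, 0 members were called in H3R8C and H3R26C under all alternatives that kept both libraries of each group. Hoxa13 was the only member tested in most settings and entered by its own mutant peaks. It was at 0 in every H3R8C and H3WT library, so these counts are no check of the members. With all 3 labelled replicates, which counts copies of a list as samples, 1 was called in H3R2C (Hoxa13, adjusted p = 0.0388 by limma, against 0.0591 to 0.718 otherwise) and 1 in H3R17C (Hoxa3). With the replicate block 0 members were called in each contrast. Numbers were not shown to pair the samples, as differences between libraries correlated at -0.0641 to 0.0649 between genotypes. With the block, genes called in H3R2C went from 466 to 287, and in H3R8C, H3R17C and H3R26C from 45, 86 and 61 to 0 each. Over all alternatives they ranged from 0 to 4469, 0 to 649, 0 to 2188 and 0 to 1606. Requiring signal in every library, or leaving out replicates 1 and 2 of H3R2C or H3R26C, left no member to test. Where 1 library remained in a group, it was assumed to vary like the others.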
